A study of Mus musculus with 12 samples.

Results

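The 5 genes described here encode the enzymes that methylate the cap of mRNA and one partner protein: Rnmt, Ramac, Cmtr1, Cmtr2, and Pcif1. They were listed by name, with earlier results of these data known, and each is described whatever its values. All 5 are among the 12591 genes of the deposited expression table. The cells were fibroblasts from embryos of C57 PER2::LUC mice, which carry luciferase fused to the clock protein PER2, and they were treated at confluence. Polyadenylated RNA was sequenced from 12 dishes in 4 groups of 3, namely untreated cells (CTL), 10 µM deazaneplanocin A (DZ), 1 mM adenine, and 1 mM S-adenosylmethionine (SAM), all for 24 h and all, CTL included, with 3.3 mM HCl in the medium. The labels give no source for the dishes beyond their numbers, so p-values measure the spread between dishes, which may be technical.

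The cap is a guanosine joined head to head to the first nucleotide of an mRNA while the transcript is still short. RNMT methylates this guanosine, and its small partner RAMAC binds and activates it. CMTR1 methylates the ribose of the first transcribed nucleotide, CMTR2 that of the second, and PCIF1 methylates the base of a first adenosine. Every one of these enzymes takes its methyl group from SAM and releases S-adenosylhomocysteine (SAH), which inhibits methyltransferases until the enzyme AHCY breaks it down. DZ inhibits AHCY, SAM is the methyl donor itself, and adenine is the base set free when SAM is used for polyamine synthesis. The comparisons ask whether mRNA levels of the cap methyltransferases differed when the supply or the by-products of methylation were altered. The sequencing data hold no measure of cap methylation. In separate mRNA samples, the authors quantified methylated nucleotides by mass spectrometry, including a methylated guanine and nucleotides methylated on the ribose. The paper reports that methylated nucleotides decreased widely with DZ, adenine, and SAM. It does not say what part of this decrease was in caps, and those measurements were not used here.

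The genes lie on separate chromosomes of the mouse genome GRCm39, all are protein coding, and all are annotated on the plus strand. Rnmt (ENSMUSG00000009535) is on chromosome 18, and its canonical transcript has 11 exons. Ramac (ENSMUSG00000038646) is on chromosome 7, from 81412191 to 81419245, with 3 exons. Cmtr1 (ENSMUSG00000024019) is on chromosome 17, from 29879569 to 29924953, with 24 exons. Cmtr2 (ENSMUSG00000046441) is on chromosome 8, from 110942297 to 110951120, with 2 exons. Pcif1 (ENSMUSG00000039849) is on chromosome 2, from 164721224 to 164736374, with 17 exons.

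Values are given as log2 CPM, the log2 of reads scaled to the library size as normalized by the authors, which includes a small prior count. The reads on listed genes numbered between 45649534 and 56789090 per library, and each member had between 941 and 9744 reads in a library. All 10 fibroblast markers examined were in the table, while 1 of 6 leukocyte, 0 of 5 epithelial, and 0 of 4 endothelial markers were listed (genes under 1 CPM in any sample were left out by the authors). The leukocyte marker was Cd68, whose level was 3.03 to 4.0 CPM in CTL, 2.73 to 3.78 CPM in DZ, 10.8 to 12.3 CPM in adenine, and 15.6 to 17.7 CPM in SAM, and its part in the results was not tested. The summed level of the fibroblast markers also moved, from 24500 to 25100 CPM in CTL to 31100 to 32000 CPM in DZ, 27900 to 30500 CPM in adenine, and 18700 to 20200 CPM in SAM. Single markers did not follow the sum under SAM, where 7 of the 10 were called higher and 2 lower (median log2 fold change 0.35), and the 2 that fell were Fn1, by 1.58, and Fbln2, by 0.19. The third SAM library stood apart from its group, as a chi-square comparison of reads gave 15.7 and 19.1 per degree of freedom against the other SAM libraries and 4.76 to 7.07 for all other pairs within groups. The scaling factors of the authors also differed between groups, from 0.962 to 0.968 in CTL to 1.0471 to 1.054 in SAM. With plain read totals in their place, the median over all genes of the log2 fold change for SAM against CTL moved from -0.015 to 0.107, and calls went from 4237 higher and 4494 lower to 5462 higher and 3462 lower. The same change took the calls for adenine from 3850 higher and 3903 lower to 4572 higher and 3264 lower, and those for SAM against adenine from 2617 higher and 2765 lower to 3573 higher and 2081 lower.

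Cmtr1 rose by 26.4% under DZ and Pcif1 rose by 32.9% under SAM. Rnmt fell by 21.3% and Cmtr2 fell by 16.8% under SAM. Ramac passed the test in none of the comparisons. Tested with limma at an FDR of 0.01 over all genes, 1 of the 5 members was called under DZ, where 45.9% of all genes were (22.6% higher, 23.4% lower). Under adenine 2 members were called, both lower, beside 61.6% of all genes (30.6% higher, 31.0% lower). Under SAM 4 members were called, 1 higher and 3 lower, beside 69.3% of all genes (33.7% higher, 35.7% lower). This count was 3 to 4 as each library was left out, and 4 without the third SAM library. The falls of Cmtr1 and Cmtr2 under SAM lost their calls with plain read totals, and Ramac was then called higher. The dishes of a treatment did not overlap those of CTL in 2 members under DZ, 2 under adenine, and 4 under SAM, beside 65.4%, 74.7%, and 77.6% of all genes. The count of calls under adenine was unstable, as it was 0 or 1 whenever any single library of either group was left out. Ignoring sign, members had a median log2 fold change of 0.094 under DZ, 0.095 under adenine, and 0.27 under SAM, against 0.18, 0.27, and 0.34 over all genes. The 3 comparisons share the CTL libraries and are therefore not independent of each other. In bulk RNA, fewer cells with a transcript and less of it per cell cannot be told apart.

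**Figure D1:**
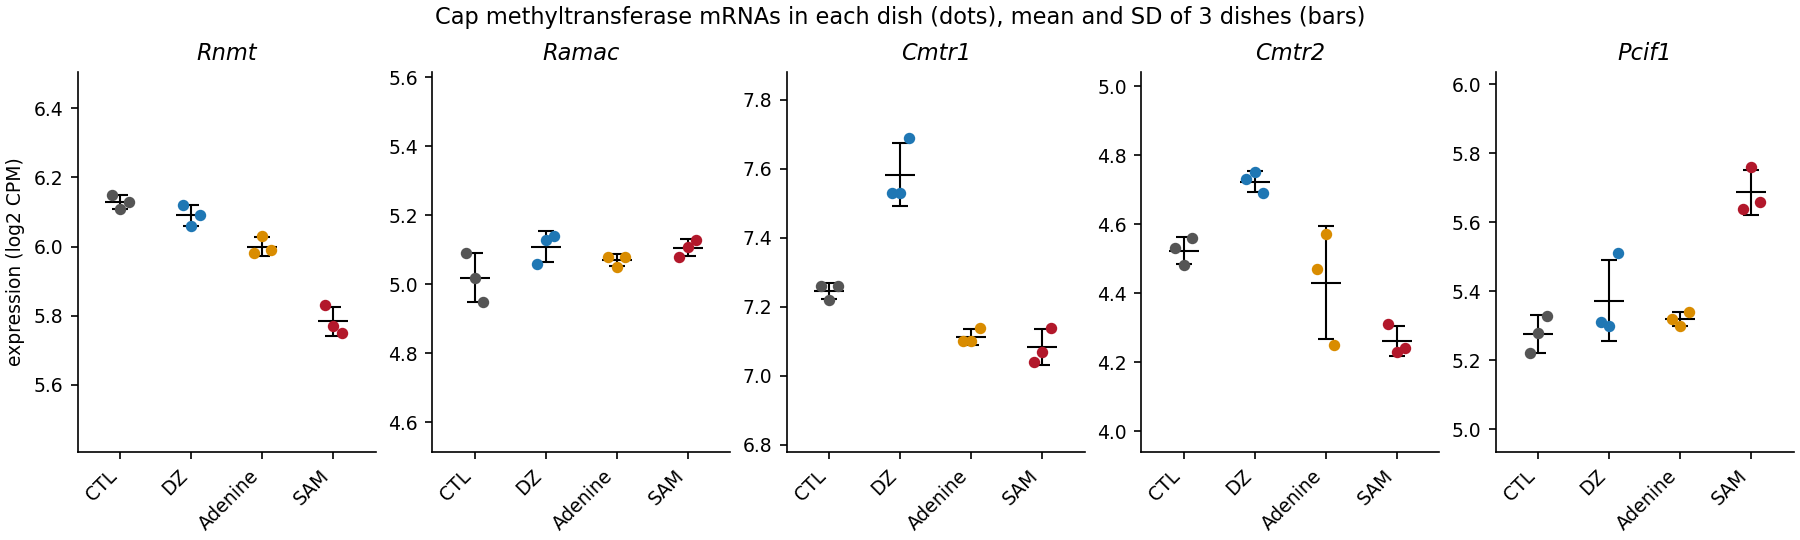
Expression of the 5 members in log2 CPM (vertical axes, each spanning the same range) in each group (horizontal axes); dots are dishes, and the black bars are the mean and SD of 3 dishes. Cmtr1 stands highest under DZ, Rnmt and Cmtr2 stand lowest under SAM, and Pcif1 under SAM lies above all dishes of the other groups.

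**Figure D2:**
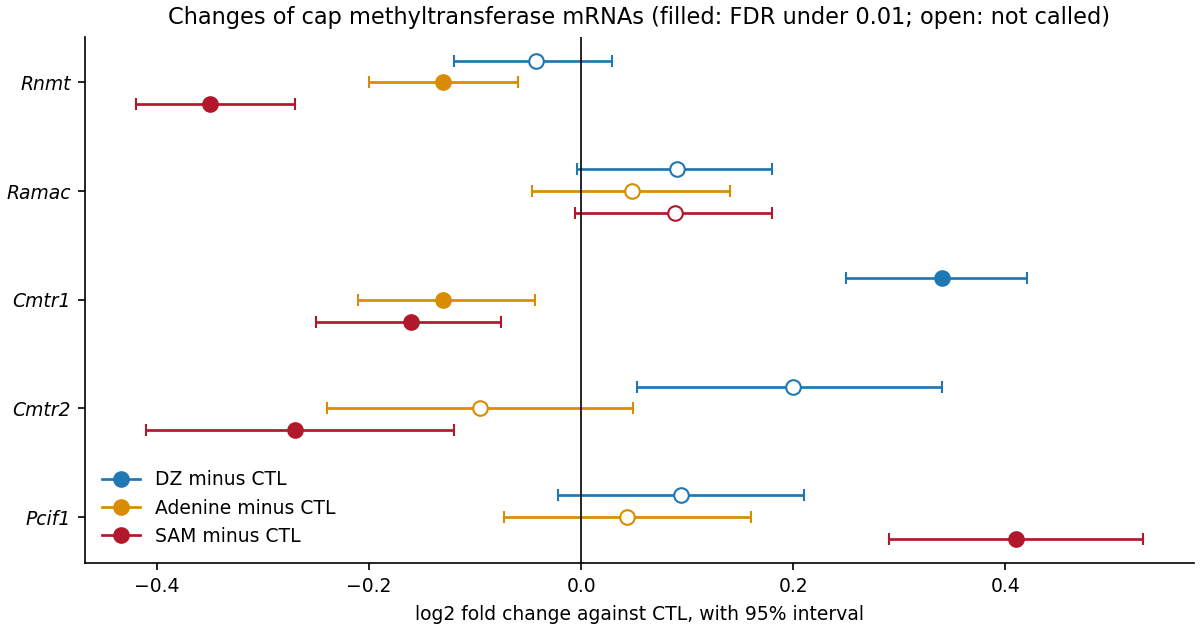
Log2 fold change of each member against CTL (horizontal axis) with its 95% interval (lines), for DZ, adenine, and SAM; filled points passed an FDR of 0.01 and open points did not. The largest values are those of Pcif1 (0.41) and Rnmt (-0.35) under SAM and Cmtr1 (0.34) under DZ.

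Rnmt encodes the methyltransferase of the cap guanosine, without which the cap is poorly bound by the translation initiation factor eIF4E. Its values were 6.15, 6.11, and 6.13 log2 CPM in the CTL dishes, and 6.12, 6.06, and 6.09 log2 CPM in the DZ dishes. The adenine dishes had 5.98, 6.03, and 5.99 log2 CPM, and the SAM dishes had 5.83, 5.77, and 5.75 log2 CPM. All SAM dishes were below all adenine dishes, which in turn were below all CTL dishes, while the DZ and CTL dishes overlapped. Rnmt fell by 0.35 on the log2 scale under SAM (SE 0.0339, 95% interval -0.42 to -0.27, limma adjusted p = 1.6e-07) and by 0.13 under adenine (adjusted p = 0.00269 by limma). The change under adenine was small, and the call was lost without adenine dish 1, adenine dish 3, or CTL dish 1, with limma adjusted p between 0.0108 and 0.013. With plain read totals the log2 fold change was -0.22 under SAM, still called, and -0.07 under adenine, no longer called. Under DZ the log2 fold change was -0.043 with a 95% interval from -0.12 to 0.029. A direct test of SAM against adenine, which were given at the same dose and time, gave a log2 difference of -0.21 (95% interval -0.29 to -0.14, limma adjusted p = 8.59e-05). Between SAM and adenine 2 of the 5 members were called, 1 higher and 1 lower, beside 42.7% of all genes (20.8% higher, 22.0% lower), and 3 members did not overlap, beside 61.3%.

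Ramac encodes the activating partner of RNMT. Its values were 5.09, 5.02, and 4.95 log2 CPM in CTL, 5.06, 5.13, and 5.14 log2 CPM in DZ, 5.08, 5.05, and 5.08 log2 CPM in adenine, and 5.08, 5.11, and 5.13 log2 CPM in SAM. The dishes of each treatment overlapped those of CTL. The log2 fold changes were 0.09 under DZ (95% interval -0.0039 to 0.18), 0.048 under adenine (-0.046 to 0.14), and 0.088 under SAM (-0.006 to 0.18), with limma adjusted p of 0.092, 0.346, and 0.0811. With plain read totals the value for SAM was 0.21 and was called (limma adjusted p = 0.000552). A change of up to 13.6% above CTL under DZ, and up to 13.5% under SAM, lies within these intervals. SAM and adenine differed by 0.04 (95% interval -0.054 to 0.13). The difference between the enzyme and its activator within a dish does not depend on how the libraries were scaled. Ramac minus Rnmt was -1.06, -1.10, and -1.18 on the log2 scale in the CTL dishes and -0.75, -0.67, and -0.61 in the SAM dishes. All SAM dishes were above all CTL dishes, with a change of 0.43 (two-sided exact permutation test, p = 0.1, the smallest that 3 against 3 dishes can give). The change was 0.18 under adenine (exact permutation p = 0.1) and 0.13 under DZ (exact permutation p = 0.2).

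**Figure D3:**
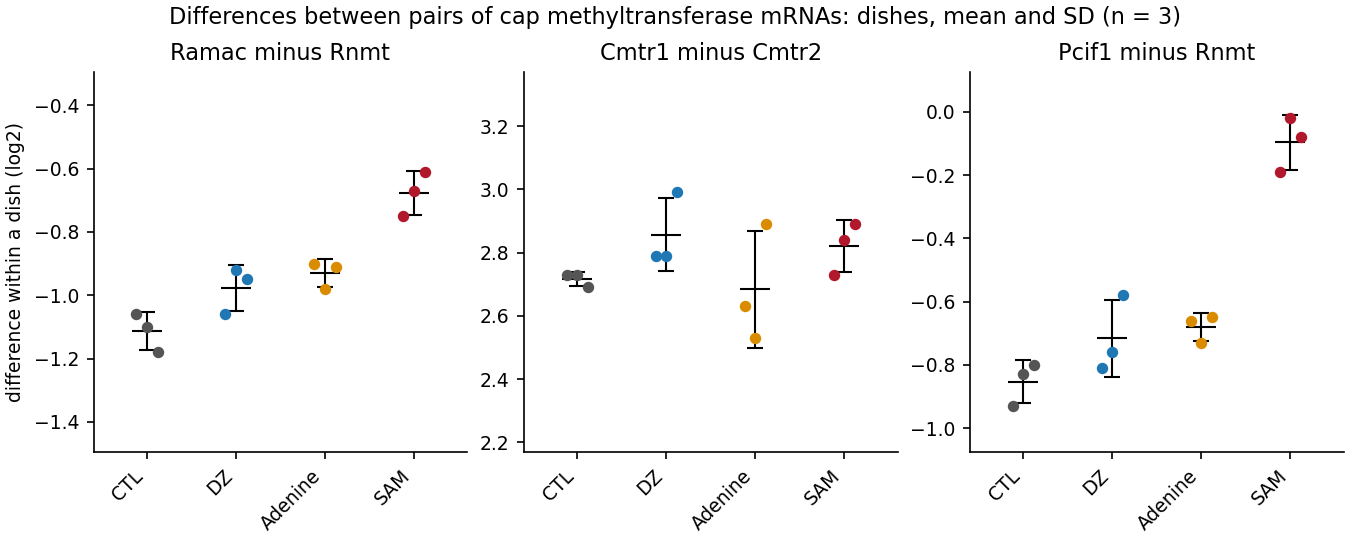
Log2 difference between pairs of members within a dish (vertical axes) by group (horizontal axes); dots are dishes, and black bars are the mean and SD of 3 dishes. Ramac minus Rnmt and Pcif1 minus Rnmt were higher in all SAM dishes and in all adenine dishes than in all CTL dishes, with larger changes under SAM (0.43 and 0.76) than under adenine (0.18 and 0.18), and Cmtr1 minus Cmtr2 overlapped between adenine and CTL.

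Cmtr1 encodes the ribose methyltransferase of the first nucleotide and is known as an interferon-stimulated gene. Its values were 7.26, 7.22, and 7.26 log2 CPM in CTL, 7.53, 7.53, and 7.69 log2 CPM in DZ, 7.10, 7.10, and 7.14 log2 CPM in adenine, and 7.04, 7.07, and 7.14 log2 CPM in SAM. All DZ dishes were above all CTL dishes, and all adenine and SAM dishes were below them. Cmtr1 rose by 0.34 on the log2 scale under DZ (SE 0.04, 95% interval 0.25 to 0.42, limma adjusted p = 4.21e-06), and the value stayed between 0.29 and 0.37 as each library was left out. The falls were smaller, by 0.13 under adenine (limma adjusted p = 0.00913) and by 0.16 under SAM (limma adjusted p = 0.0018). With plain read totals they were -0.068 (limma adjusted p = 0.151) and -0.039 (limma adjusted p = 0.391), and neither was called. SAM and adenine did not pass a test against each other (log2 difference -0.032, 95% interval -0.12 to 0.053), and this difference turned positive, at 0.028, with plain read totals. The fall under adenine lost its call without any single library of either group, and the fall under SAM lost it without SAM dish 1 (limma adjusted p = 0.0103).

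A second gene bears on these values. Gm28043 is annotated as a readthrough gene on the same strand, from 29833850 to 29922333 on chromosome 17, that joins Rnf8 to Cmtr1, and it shares 3390 bases, or 53.1%, of the exons of the canonical Cmtr1 transcript. Reads on shared exons can be assigned to either gene. Gm28043 had 3.68, 4.64, and 3.78 log2 CPM in CTL, 5.12, 5.48, and 4.24 log2 CPM in DZ, 4.24, 4.44, and 4.32 log2 CPM in adenine, and 4.94, 4.89, and 3.94 log2 CPM in SAM. It was thus lowest in the third DZ and the third SAM dish, where Cmtr1 was highest within its group, and highest in the CTL dish where Cmtr1 was lowest. Its share of the reads of both genes ranged from 7.69% to 19.4%. With the reads of both genes summed, an alternative chosen after seeing the data, the values were 7.37, 7.44, and 7.38 log2 CPM in CTL and 7.77, 7.84, and 7.81 log2 CPM in DZ. The SD of the dishes was then 0.0349 in DZ, 0.0395 in SAM, 0.0202 in adenine, and 0.0349 in CTL, as opposed to 0.0913, 0.0478, 0.0202, and 0.0252 for Cmtr1 alone. The summed reads rose by 0.41 under DZ (95% interval 0.35 to 0.48, limma adjusted p = 2.68e-08). They were 7.29, 7.31, and 7.33 log2 CPM in adenine and 7.34, 7.36, and 7.28 log2 CPM in SAM, and the log2 fold changes of -0.088 and -0.07 were not called (limma adjusted p = 0.0171 and 0.0472). The rise under DZ was thus called for Cmtr1 alone and for the sum, and the falls under adenine and SAM for Cmtr1 alone.

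**Figure D4:**
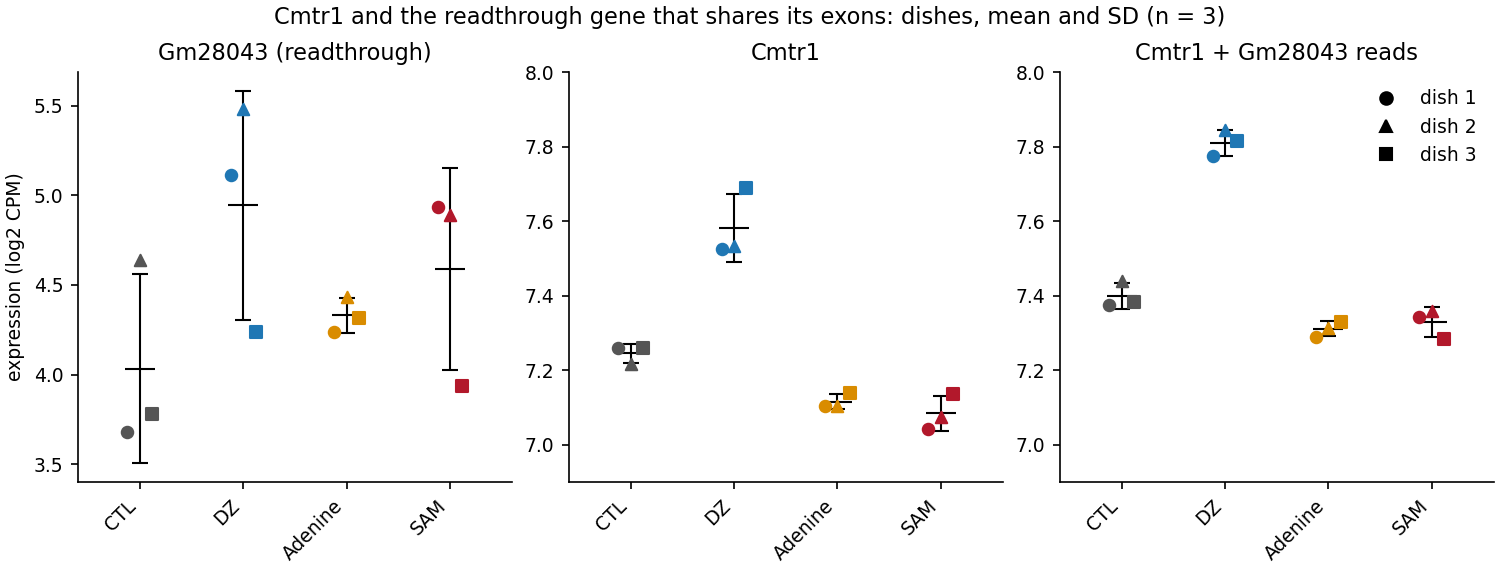
Log2 CPM (vertical axes) of the readthrough gene Gm28043, of Cmtr1, and of the summed reads of both, by group (horizontal axes); marker shapes are dish numbers, and black bars are the mean and SD of 3 dishes. In the sum the DZ dishes lie between 7.77 and 7.84 and all other dishes between 7.28 and 7.44.

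The interferon-stimulated genes were examined because Cmtr1 is one of them. Their products include IFIT1, which binds mRNA whose first nucleotide lacks ribose methylation. Of 20 genes listed, 14 were in the table, and every one of these 14 rose in the DZ dishes, by 1.47 to 3.61 on the log2 scale, with a median of 2.07. Isg15, which encodes a ubiquitin-like protein, had 2.99, 3.04, and 3.14 log2 CPM in CTL and 6.67, 6.72, and 6.59 log2 CPM in DZ. The rise of Cmtr1 was smaller than that of every one of these 14 genes. Under adenine 11 of the 14 were called lower (median -0.61). Under SAM 4 were called higher and 5 lower (median -0.14), or 5 higher and 4 lower with plain read totals. Of all genes, 22.6% were called higher under DZ and 31.0% lower under adenine. Under SAM 33.7% of all genes were called higher and 35.7% lower, so the split of the list under SAM was near that of all genes. Against adenine, all 14 were called higher in SAM, and 12 without the third SAM library, beside 20.8% of all genes with all libraries. This rise of interferon-stimulated genes was known before the list was used here and is not independent evidence.

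The promoters of Cmtr1 and Isg15 are shown because both genes rose under DZ while their sizes of change differed. Each is the 250 bases before the annotated start of the gene in GRCm39, read 5′ to 3′ on the strand of the gene, with capitals marking matches to an interferon response motif, GAAA followed by any 2 bases and GAAA again (both strands were searched, and matches may overlap).

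Cmtr1, chr17:29879319-29879568, plus strand: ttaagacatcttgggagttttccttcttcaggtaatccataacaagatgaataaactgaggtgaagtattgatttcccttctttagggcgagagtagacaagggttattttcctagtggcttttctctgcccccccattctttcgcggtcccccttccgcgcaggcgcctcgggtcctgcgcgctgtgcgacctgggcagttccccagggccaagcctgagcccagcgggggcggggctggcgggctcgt

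Isg15, chr4:156285304-156285553, minus strand: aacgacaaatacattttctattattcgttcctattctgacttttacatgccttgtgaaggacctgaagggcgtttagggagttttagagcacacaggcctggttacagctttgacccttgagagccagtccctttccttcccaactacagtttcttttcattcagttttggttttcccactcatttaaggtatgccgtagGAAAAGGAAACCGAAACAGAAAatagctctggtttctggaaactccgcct

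The Isg15 window holds 3 overlapping matches within 1 run of capitals, and the Cmtr1 window holds 0. None of the 5 members had a match in its window, as opposed to 6 of the 14 interferon-stimulated genes (42.9%) and 386 of 12574 windows of all genes that could be read (3.07%). A match is only a run of letters, and its absence says that these letters are not in this window.

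Cmtr2 encodes the ribose methyltransferase of the second nucleotide and had the fewest reads of the members. Its values were 4.53, 4.48, and 4.56 log2 CPM in CTL, 4.73, 4.75, and 4.69 log2 CPM in DZ, 4.47, 4.57, and 4.25 log2 CPM in adenine, and 4.31, 4.23, and 4.24 log2 CPM in SAM. All DZ dishes were above and all SAM dishes below all CTL dishes, whereas the adenine dishes overlapped CTL and spread most (SD 0.165). Cmtr2 fell by 0.27 under SAM (SE 0.0674, 95% interval -0.41 to -0.12, limma adjusted p = 0.00217), and this call was lost without CTL dish 3 (limma adjusted p = 0.0102) and with plain read totals (-0.14, limma adjusted p = 0.061). Under DZ the log2 fold change of 0.20 (95% interval 0.053 to 0.34) did not pass the test (limma adjusted p = 0.021), nor did that of -0.095 under adenine (95% interval -0.24 to 0.049). The value under adenine was -0.0047 without adenine dish 3, -0.17 without adenine dish 2, and -0.034 with plain read totals, and none of these was called. SAM minus adenine was -0.17 (limma adjusted p = 0.0432), and it depended on single adenine dishes, being -0.26 and called without adenine dish 3 (limma adjusted p = 0.00151) and -0.1 without adenine dish 2 (limma adjusted p = 0.228). With plain read totals it was -0.11 (limma adjusted p = 0.171).

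The enzymes of the first and the second nucleotide were compared within dishes. Cmtr1 minus Cmtr2 was 2.73, 2.73, and 2.69 on the log2 scale in CTL and 2.79, 2.79, and 2.99 in DZ. The SAM dishes had 2.73, 2.84, and 2.89, and the adenine dishes 2.63, 2.53, and 2.89. The changes from CTL were 0.14 under DZ and 0.10 under SAM (exact permutation p = 0.1 in each) and -0.03 under adenine (exact permutation p = 0.7). The SDs of the treated dishes were 0.117, 0.0804, and 0.184 for DZ, SAM, and adenine, as large as these changes or nearly so. These differences leave out reads assigned to Gm28043, whose share of the reads of both genes varied between dishes. It was 15.8%, 19.4%, and 8.37% in the DZ dishes and 18.9%, 18.0%, and 9.82% in the SAM dishes. Part of the spread may come from this split, and the difference with summed reads was not tested. As each dish was left out, the change was 0.07 to 0.18 under DZ, with 0.07 without DZ dish 3, and 0.07 to 0.15 under SAM, and it was between -0.14 and 0.04 under adenine.

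Pcif1 encodes the enzyme that adds a methyl group to the base of an adenosine next to the cap. Its values were 5.22, 5.28, and 5.33 log2 CPM in CTL, 5.31, 5.30, and 5.51 log2 CPM in DZ, 5.32, 5.30, and 5.34 log2 CPM in adenine, and 5.64, 5.76, and 5.66 log2 CPM in SAM. The SAM dishes were above all other dishes, and the remaining groups overlapped. Pcif1 rose by 0.41 under SAM (SE 0.0546, 95% interval 0.29 to 0.53, limma adjusted p = 5.01e-06), with values between 0.38 and 0.44 as each library was left out. It was higher by 0.37 in SAM than in adenine (95% interval 0.25 to 0.48, limma adjusted p = 4.58e-05). The log2 fold changes of 0.094 under DZ (95% interval -0.022 to 0.21) and 0.043 under adenine (95% interval -0.073 to 0.16) were not called. Pcif1 minus Rnmt within a dish was -0.93, -0.83, and -0.80 in CTL and -0.19, -0.02, and -0.08 in SAM, a change of 0.76 (exact permutation p = 0.1). It was -0.66, -0.73, and -0.65 in adenine, also above all CTL dishes, with a change of 0.18 (exact permutation p = 0.1), and -0.81, -0.76, and -0.58 in DZ, where it overlapped CTL, with a change of 0.14 (exact permutation p = 0.2).

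Several members overlap genes on the opposite strand, and whether the counting used the strand kept by the library kit is not given in the sources used here. Zfp335, which encodes a zinc finger protein, overlaps 1110 bases, or 19.2%, of the exons of the canonical Pcif1 transcript. It fell by 0.26 under SAM (limma adjusted p = 0.000129), opposite to Pcif1. It rose by 0.25 under DZ, where Pcif1 was at 0.094 and not called. Ccdc167 overlaps 20.2% of the Cmtr1 exons and fell by 0.58 under DZ (limma adjusted p = 0.000525), opposite to Cmtr1. It also fell under SAM, by 0.66 (limma adjusted p = 8.6e-05), where Cmtr1 fell by 0.16. Fam210a overlaps 5.15% of the Rnmt exons and rose by 0.19 under SAM (limma adjusted p = 0.00571), opposite to Rnmt, although its SAM and CTL dishes overlapped. The part of opposite-strand reads in the values of the members was not tested.

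Levels of different genes were compared as CPM per kilobase of the canonical transcript. In CTL, Cmtr1 (23.8 ± 0.414, SD, n = 3) and Ramac (22.3 ± 1.07) stood at the top, and their dishes overlapped. Rnmt followed at 12.9 ± 0.147, and Pcif1 (6.71 ± 0.247) and Cmtr2 (6.43 ± 0.182) stood at the bottom, also with overlapping dishes. Under DZ, Cmtr1 reached 30.1 ± 1.94 and stood clear of Ramac at 23.7 ± 0.739 CPM per kilobase, while Cmtr2 (7.37 ± 0.135) and Pcif1 (7.18 ± 0.609) overlapped. Under adenine, Ramac (23.0 ± 0.305) lay above Cmtr1 (21.7 ± 0.306), and Pcif1 (6.91 ± 0.11) above Cmtr2 (6.04 ± 0.676), with no overlap of dishes in either pair. Under SAM, Ramac (23.7 ± 0.404) was first, with all its dishes above those of Cmtr1 (21.3 ± 0.707), followed by Rnmt (10.2 ± 0.322), Pcif1 (8.92 ± 0.387), and Cmtr2 (5.35 ± 0.15). The levels of Cmtr1 leave out reads assigned to Gm28043, which shares its exons. With the reads of both genes summed, mean log2 CPM was 7.4 in CTL, 7.31 in adenine, and 7.33 in SAM. For Cmtr1 alone it was 7.24, 7.12, and 7.08. The order of Cmtr1 and Ramac may therefore differ with the sum, which was not tested. Parts of this order also depend on the transcript used. The longest annotated transcript of Ramac, of 5895 bases in place of 1458, puts its CTL level at 5.51 CPM per kilobase. The longest transcript of Pcif1, of 7075 bases in place of 5780, puts Pcif1 below Cmtr2 in CTL, at 5.48 ± 0.202 against 6.43 ± 0.182 CPM per kilobase with no overlap of dishes, and below it under DZ (5.86 ± 0.497 against 7.37 ± 0.135), again with no overlap. Under adenine it stands at 5.65 ± 0.0898 CPM per kilobase and overlaps Cmtr2, and under SAM, at 7.29 ± 0.316, it stays above Cmtr2.

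Across all 12 libraries, the genes whose log2 CPM was most like that of a member are given as a description, because the libraries share groups and scaling. For Rnmt these were Acadsb, Psap, and Ap5z1, with Pearson r of 0.989, 0.987, and 0.987. Those for Cmtr1 were Wdr18, Trim27, and Aurkaip1 (0.985, 0.984, and 0.983), and those for Cmtr2 were Htra1, Gm7623, and Zscan12 (0.963, 0.954, and 0.949). Pcif1 was most like Caskin2, Lin37, and Pank4 (0.956, 0.956, and 0.954). Ramac had weaker neighbours, namely Gm18959, Emc9, and Fam118b (0.911, 0.894, and 0.847). Among the members themselves, r ranged from -0.873 for Rnmt and Pcif1 to 0.812 for Cmtr1 and Cmtr2.

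The caps made by these enzymes are added, bound, and removed by other proteins, and 32 of 33 such genes listed could be tested. DZ gave calls for 12 of the 32 (37.5%), 9 higher and 3 lower. Under adenine 21 were called (65.6%), 12 higher and 9 lower, and under SAM 21 were called, 11 higher and 10 lower. Without the third SAM library the count under SAM was again 21. The median log2 fold changes of the list were 0.05, -0.01, and 0.01, near those of all genes, and that for SAM was 0.14 with plain read totals. The shares of all genes called, 45.9%, 61.6%, and 69.3%, were near these, and no reading is drawn from them. The genes named for each role are those with the smallest adjusted p.

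Among the genes that act with the enzymes in cap addition, 4 of 5 were called under SAM, 3 higher and 1 lower. Of all genes, 69.3% were called under SAM (33.7% higher, 35.7% lower), and no reading is drawn from this or the following counts by role. Kpna2, which encodes an importin that binds RNMT, had 6.42, 6.26, and 6.42 log2 CPM in CTL and 7.58, 7.59, and 7.67 log2 CPM in SAM. It rose by 1.24 under SAM, by 0.99 under adenine, and by 0.16 under DZ, with limma adjusted p of 8.39e-13, 1.85e-11, and 0.00597. Supt5, whose product recruits the capping enzyme to the polymerase, fell by 0.31 under adenine and by 0.38 under SAM (limma adjusted p = 7.49e-08 and 5.81e-09), and its log2 fold change under DZ was -0.011.

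Of the 7 genes for nuclear cap binding, 5 were called under SAM, 4 higher and 1 lower, and the same counts were found under adenine. With plain read totals all 7 were called under SAM, 6 higher and 1 lower. Alyref, an mRNA export adaptor, rose by 0.48 under adenine and by 0.69 under SAM (limma adjusted p = 6.01e-09 and 4.78e-11). Ncbp1, the large subunit of the cap binding complex, was the gene that fell, by 0.35 and by 0.45 (limma adjusted p = 2.48e-08 and 8.15e-10). Ncbp2, which was named after its values were seen because it encodes the subunit that holds the cap, rose by 0.48 and by 0.76 in the same comparisons (limma adjusted p = 8.92e-07 and 2.92e-09).

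Among 6 genes listed for cytosolic cap binding, including the repressor gene Eif4ebp1, 3 were called lower and 0 higher under SAM. Eif4ebp1, which encodes a repressor of eIF4E, had 8.27, 8.18, and 8.23 log2 CPM in CTL, 8.55, 8.58, and 8.57 log2 CPM in DZ, 8.04, 8.01, and 8.04 log2 CPM in adenine, and 6.93, 7.0, and 7.12 log2 CPM in SAM. Its groups did not overlap, and it rose by 0.34 under DZ and fell by 0.19 under adenine and by 1.21 under SAM (limma adjusted p = 3.41e-06, 0.000455, and 3.21e-13). Larp1, whose product binds the cap of mRNAs for ribosomal proteins, rose by 0.24 under DZ and fell by 0.14 under adenine and by 0.45 under SAM.

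For cap removal and decay, 6 of the 10 genes in the table were called under SAM, 3 higher and 3 lower. Dxo, which removes incompletely methylated caps, rose by 0.28, 0.23, and 0.74 under DZ, adenine, and SAM (limma adjusted p = 0.000752, 0.00204, and 1.11e-08). Xrn2, a nuclear exonuclease that degrades decapped RNA, fell by 0.22, 0.33, and 0.55 (limma adjusted p = 5.6e-05, 4.72e-07, and 6.67e-10). Of the 4 genes for other cap modifications, 3 were called under SAM, 1 higher and 2 lower. Tgs1, which adds further methyl groups to the caps of small nuclear RNAs, fell by 0.65 under adenine and by 0.76 under SAM. Mepce, which methylates the end of the RNA called 7SK, rose by 0.38 and by 0.51 in the same comparisons.

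**Figure D5:**
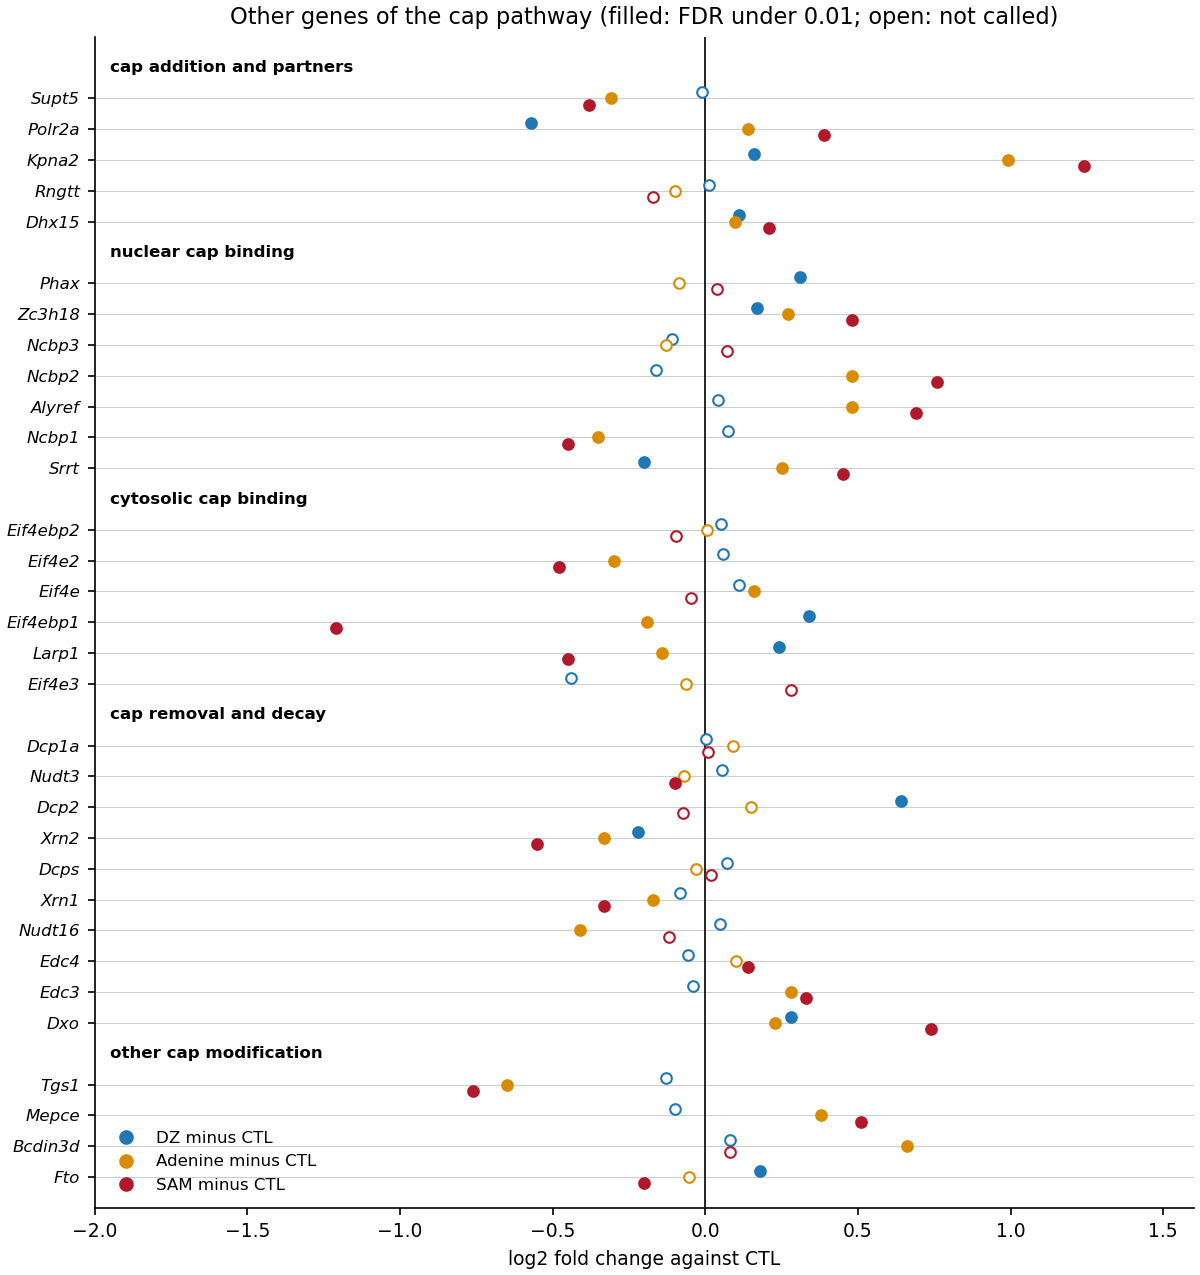
Log2 fold change against CTL (horizontal axis) of the 32 other genes of the cap pathway (vertical axis, grouped by role) under DZ, adenine, and SAM; filled points passed an FDR of 0.01 and open points did not. The widest changes are the rise of Kpna2 (1.24) and the fall of Eif4ebp1 (-1.21) under SAM.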

How the data were processed

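Libraries were made from polyadenylated RNA of 12 dishes with a stranded Illumina kit and sequenced in pairs. Per the labels and the methods of the study, the authors trimmed reads with Trimmomatic, aligned them to GRCm39 with HISAT2 with the GENCODE annotation vM27, quantified transcripts with StringTie, and, in edgeR, removed genes that any sample had below 1 CPM. Tool versions and the use of strand in counting are not given in the sources used here. The deposited table gives 12591 genes as log2 CPM, with library sizes normalized by the authors, and these log2 values were tested without further scaling. Whole reads were recovered with a prior count of 2, and 100% of values came within 0.01 of a whole number. These are estimates that StringTie derived from coverage.

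Tests across genes used limma 3.58.1 under R 4.3.3 (lmFit, eBayes with a variance trend, 1 model of 12 libraries), with Benjamini-Hochberg adjustment over all genes and an FDR of 0.01. The procedure was tested on simulated data with independent noise, which cannot bear on the scaling or on libraries that stand apart. DZ was given at another dose than adenine and SAM, so of the treatments only SAM and adenine were compared with each other. Percent changes are the log2 fold changes converted. Differences within dishes were tested by two-sided exact permutation tests. Positions and lengths come from GENCODE vM39, a later release than that of the authors, in which 12575 of the identifiers were matched, with Python 3.11.15, numpy 2.4.6, pandas 2.3.3, scipy 1.17.1, and matplotlib 3.10.9.

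The members and lists were chosen with earlier results of these data known. Other cap genes were named by a rule, at most 2 per role with the smallest adjusted p against CTL, and for each member the 3 genes of highest Pearson r. The alternatives were an FDR of 0.05, minimum log2 values of 1 (every library) or 3 (mean), median centring, quantile normalization, plain read totals, no variance trend, robust empirical Bayes, a pseudocount of 1 CPM, a separate model per comparison, voom on the recovered reads, a replicate block, and leaving out each library. The labels do not say whether replicate numbers pair the dishes, and the main model treated the dishes as unpaired. Same-numbered libraries had deviations from their group means with r between -0.142 and 0.181, which cannot settle this.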

Additional observations from a re-analysis of the deposited data

How the results depend on the processing

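The rise of Cmtr1 under DZ and, under SAM, the rise of Pcif1 and the fall of Rnmt kept their direction and call in every alternative run. Under DZ, Cmtr2 (0.2) was called at an FDR of 0.05 (limma adjusted p = 0.021) and in a separate model (limma adjusted p = 0.00454), which made 2 members called in each. Under adenine, Rnmt was at -0.07 (limma adjusted p = 0.0738) and Cmtr1 at -0.068 (0.151) with plain read totals, leaving 0 members called. Cmtr1 under adenine also lost its call with no variance trend (-0.13), voom (-0.13), quantile normalization (-0.1), and the reads of Gm28043 added (-0.088), each of which left 1 member called. Values for adenine turned negative for Ramac with median centring (-0.0033) and quantile normalization (-0.0044), and for Pcif1 with median centring (-0.0079). Under SAM, plain read totals gave 0.21 for Ramac, now called, and -0.039 for Cmtr1 and -0.14 for Cmtr2, no longer called. Cmtr1 under SAM was not called with quantile normalization (-0.11) or with Gm28043 added (-0.07). Cmtr1 for SAM minus adenine turned to 0.028 with plain read totals and 0.018 with Gm28043 added, and Cmtr2 (-0.17) was called at an FDR of 0.05. The causes were not tested.

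With a library left out, the log2 fold change under adenine was between -0.15 and -0.12 for Rnmt and between -0.14 and -0.12 for Cmtr1, and 0 to 1 members were called. Under SAM, Cmtr1 was between -0.19 and -0.14 and Cmtr2 between -0.29 and -0.25, and for SAM minus adenine Cmtr2 was between -0.26 and -0.1. Members called numbered 3 to 4 under SAM and 2 to 3 for SAM minus adenine. The change of Cmtr1 minus Cmtr2 within a dish under adenine was between -0.14 and 0.04. Where an arm kept 2 dishes, its spread was pooled with the other groups.

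With the replicate block, 1, 2, 4, and 2 members were called under DZ, adenine, SAM, and SAM minus adenine, and 5762, 7739, 8734, and 5337 genes in all, and no call of a member changed. Counts over all genes stayed within 1.5 times in all alternatives. Cmtr2, with 941 to 1322 reads per library, had the largest SE of the members (0.0674).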
